A study of Mus musculus with 4 samples.

Results

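The cytosolic ribosome is built from a large and a small subunit, and each carries a set of ribosomal proteins arranged on ribosomal RNA. The genes of these proteins are transcribed at high levels in growing cells. Most of their mRNAs begin with a 5′ terminal oligopyrimidine tract (5′TOP), a run of C and T bases at the start site through which mTOR signalling tunes their translation. Several of the proteins also have other functions, and Rpl5 and Rpl11 are known for binding Mdm2 when ribosome assembly is disturbed.

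Cytosolic ribosomal protein genes were taken from the count matrix by their symbols, namely Rpl or Rps followed by a number with an optional letter, Rplp0 to Rplp2, and Rpsa. This gave 84 of the 24421 listed gene symbols, 51 of the large subunit and 33 of the small subunit. The mouse melanoma line B16F10 (C57BL/6 strain) had been transduced with lentivirus and selected with puromycin in both groups. The shControl cells carried an empty vector, and the shLmna cells a short hairpin RNA to Lmna, which encodes lamins A and C. Effects of expressing a hairpin as such are therefore not separated from those of the knockdown. Both groups are bulk selected lines, and the sources used here do not say if the 2 libraries of a group are separate transductions. Each group had 2 libraries (n = 2 throughout), made by bulk MARS-seq, which primes at the poly(A) tail and counts the 3′ ends of transcripts. P-values therefore measure spread between these libraries, which may be technical. In bulk samples a change in the number of cells of a type and a change in RNA per cell cannot be told apart.

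Library totals lay between 2494880 and 3808843 counts. Lmna stood at 875.3 and 718.6 CPM (counts scaled to library size by TMM) in shControl 1 and 2 and at 130.9 and 130.8 CPM in shLmna 1 and 2. The log2 ratio of shLmna to shControl (log2FC) was -2.61 (SE 0.142; edgeR quasi-likelihood test, adjusted p = 7.93e-06) and had a range of -2.74 to -1.54 over the alternatives. The 7 melanocyte markers summed to between 20117 and 24602 CPM in each library, although Tyr, the gene of tyrosinase, had means of only 0.289 and 1.55 CPM. Leukocyte markers summed to 11.5 to 18.3 CPM with 3 of 6 at 0 in every library, endothelial markers to 0 to 1.34 CPM with 2 of 4 at 0, and fibroblast markers to 2.37 to 7.23 CPM with 2 of 5 at 0.

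The start sites of the genes that the results turn on are shown first, since the pyrimidine tract is the sequence the family is known for. Of the 84 genes, 63 were matched in RefSeq start site windows of mouse build GRCm38.p6. Each line gives 10 bases before the RefSeq start and 20 from it on, 5′ to 3′ on the gene's strand, and capitals mark the longest run of at least 6 C or T bases that begins with C.
Rpl15 (chr14:18270967-18270996, minus strand): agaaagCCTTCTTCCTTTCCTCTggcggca
Rpl5 (chr5:107900518-107900547, plus strand): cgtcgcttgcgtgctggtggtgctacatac
Rpl39 (chrX:37085203-37085232, minus strand): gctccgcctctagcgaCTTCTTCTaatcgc
Rpl22l1 (chr3:28805498-28805527, plus strand): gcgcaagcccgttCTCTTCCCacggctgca
Rpl18 (chr7:45718061-45718090, plus strand): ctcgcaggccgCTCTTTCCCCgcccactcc
Rps2 (chr17:24720053-24720082, plus strand): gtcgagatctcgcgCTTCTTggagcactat
Rps25 (chr9:44407704-44407733, plus strand): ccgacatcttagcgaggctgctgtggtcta

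A tract of C followed by at least 6 C or T bases, within 20 bases before to 30 bases after the start, was found in 38 of the 63 matched genes (60.3%). The same tract was found in 25.8% of the 7150 tested genes with a start site window. Among the 10 matched ribosomal protein genes with an adjusted p under 0.05, 6 held it. In the windows printed above a tract was marked both in genes that were lower in shLmna, such as Rpl15 and Rps2, and in genes that were higher, such as Rpl39 and Rpl22l1. The motif CCGGAAG, a core bound by ETS factors, was found on either strand of the 300 bases around the start in 26 of the 63 genes (41.3%) and in 23.3% of the tested genes. Such a match is a description of the letters and not a site in use.

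To ask how the ribosomal protein genes behaved after lamin A/C knockdown, they were followed in a test of all 9150 genes that passed a filter on low counts. Of the 84 genes, 76 passed the filter, 45 of the large and 31 of the small subunit. An edgeR quasi-likelihood adjusted p under 0.05 was found for 16 of them (21.1%), 7 higher and 9 lower in shLmna. By subunit, 11 of the 45 large subunit genes passed (24.4%), 5 higher and 6 lower, and 5 of the 31 small subunit genes (16.1%). Over all tested genes 15.2% passed, 5.48% higher and 9.74% lower, so the count of 16 stands near the background. With a log2FC over 1 in size and a mean normalized count over 5 added as limits, 4 ribosomal protein genes remained (5.26%), against 7.64% of all tested genes (1.76% higher and 5.88% lower). These were Rpl15 and Rpl5, both lower, and Rpl39 and Rpl22l1, both higher. On the log2 scale the median fold change was -0.09 for the large subunit and -0.07 for the small subunit, beside -0.00107 for all tested genes. The groups did not overlap in 48 of the 76 genes (63.2%), 19 higher and 29 lower, beside 60.1% of all tested genes.

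**Figure D1:**
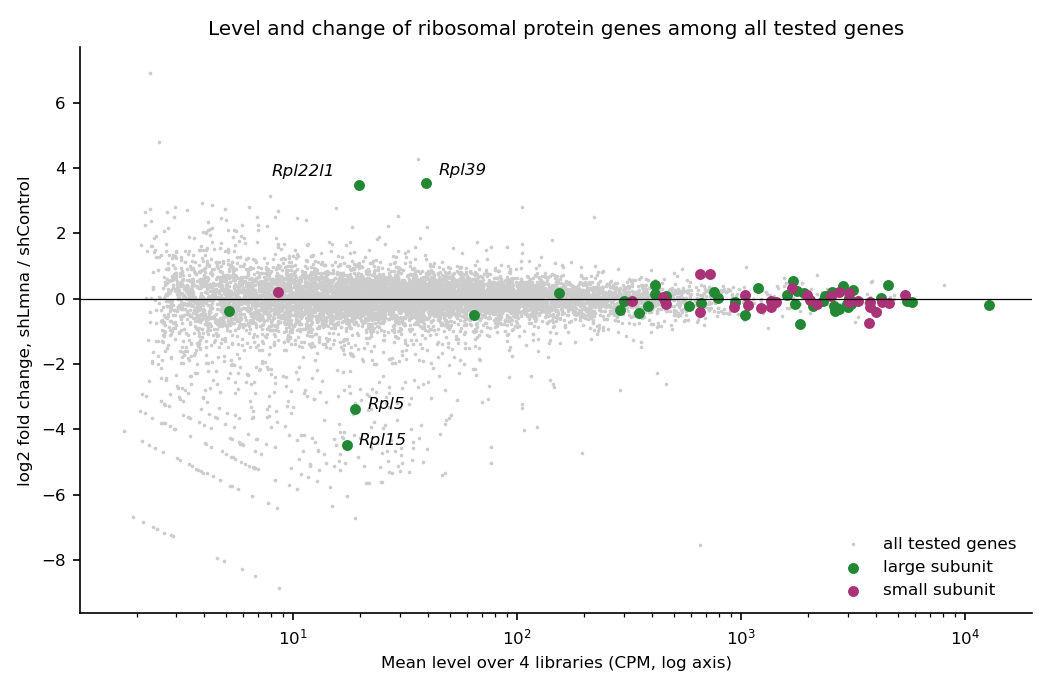
Mean level over the 4 libraries (CPM, log axis) against the log2 fold change of shLmna over shControl. Grey points are all 9150 tested genes, green points the 45 large subunit genes and purple points the 31 small subunit genes. Most ribosomal protein genes lie at the right, close to 0, while Rpl15, Rpl5, Rpl39 and Rpl22l1 lie under 100 CPM and far from 0.

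The large changes were found at low levels. A mean of 100 CPM or more was found for 69 of the 76 tested genes, and 12 of these had an adjusted p under 0.05 (17.4%), the same share as among all 2017 tested genes at that level (17.4%). Their largest changes were Rpl18 at -0.76 and Rps27a at 0.76 on the log2 scale, and none passed the limit of 1. All 3 limits were passed by 2.38% of all tested genes at that level, against 7.64% of all tested genes at any level. The edgeR test gave 21 of the 69 an unadjusted p under 0.05, a count given here without a share over all genes. A change within 0.5 on the log2 scale was fitted for 64 of the 69 (92.8%), beside 87.1% of all tested genes at that level. The remaining 7 genes, under 100 CPM, held all 4 of the large changes, along with Rpl22, Rpl21 and Rps15a. Rpl15, Rpl5, Rpl39 and Rpl22l1 had means of 17.3, 18.8, 39.3 and 19.8 CPM, beside a median of 1697 CPM over the 76 tested genes. Their values describe what was counted, which may be a small part of the mRNA of each gene.

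Rpl15, a protein of the large subunit that binds ribosomal RNA, showed the largest decrease of the family. In shControl 1 and 2 it had 101 and 131 raw counts (31.3 and 35.1 CPM), and in shLmna 1 and 2 it had 4 and 5 (1.58 and 1.36 CPM). Both shLmna libraries lay far under both shControl libraries. The level fell by 95.5%, a log2FC of -4.48 (SE 0.319, 95% interval -5.19 to -3.76; edgeR quasi-likelihood test, adjusted p = 2.31e-05). Rpl15 lies on the minus strand of chromosome 14 (18267823 to 18271391, GRCm38).

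Rpl5, which carries the 5S ribosomal RNA into the large subunit together with Rpl11, was also lower. It had 91 and 150 raw counts in shControl (28.2 and 40.2 CPM) but 12 and 8 in shLmna (4.75 and 2.18 CPM), again without overlap. The counted level fell by 90.3%, a log2FC of -3.37 (SE 0.361, 95% interval -4.18 to -2.56) with an edgeR adjusted p of 2.61e-04. The gene spans bases 107900502 to 107909005 on the plus strand of chromosome 5. Rpl11, its partner, stood at 1867 and 1743 CPM in shControl and 1995 and 2042 CPM in shLmna. Its log2FC was 0.16 (95% interval -0.07 to 0.39), with an edgeR adjusted p of 0.324.

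By the annotation used here, the counts of Rpl15 and Rpl5 come from a stretch of their mRNA that lies outside the coding sequence. The authors' RefSeq version may differ from this annotation. Reads were counted over the last 1000 bases of a gene, and the annotated 3′ untranslated regions (3′UTR) of Rpl15 and Rpl5 are 1188 and 1009 bases long. This held for 9 of the 84 genes in all, a group noticed after the values were seen and therefore given without a test. Among the other 7, Rpl21 and Rps15a were low (means of 5.20 and 8.60 CPM), while Rps24, Rps20 and Rps3 reached 2734, 1360 and 930.8 CPM. Their log2FC values were -0.37, 0.20, 0.21, -0.06 and -0.26. The remaining genes were Rpl22 (mean of 64.1 CPM, log2FC of -0.51, lower in both shLmna libraries) and Rpl7l1 (153.8 CPM, 0.17). None of the 7 had an edgeR adjusted p under 0.05, with Rpl22 nearest at 0.0541, and 6 of the 9 log2FC values were negative. Transcripts that end before this stretch would not be counted, and the part of this in the decrease was not tested. GC content of the counted stretch was 37% in Rpl15 and 37.3% in Rpl5, beside a median of 50.6% in the family and 47% in all tested genes with a value. It was 35.6% in Rps20. With a correction for GC content the log2FC values were -4.08 and -3.01. In the Rpl5 stretch 96.6% of all 31-base sequences also occur in other transcripts, mainly in Fam69a, which overlaps it on the opposite strand and itself had 1, 1, 2 and 0 counts. In the Rpl15 stretch none did.

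Rpl39, a small protein that lines the tunnel through which the nascent chain leaves the ribosome, showed the largest increase. It had 14 and 29 raw counts in shControl (4.34 and 7.76 CPM) but 218 and 216 in shLmna (86.2 and 58.9 CPM). The shLmna libraries lay well above the shControl libraries. The log2FC was 3.54 (SE 0.297, 95% interval 2.88 to 4.21), an 11.7-fold rise, with an edgeR adjusted p of 4.93e-05. Rpl39 lies on the minus strand of chromosome X (37082520 to 37085402). Its paralog Rpl39l, known from the testis, was listed at 0 in all 4 libraries.

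Rpl22l1 encodes a paralog of Rpl22 that can take its place in the large subunit. It had 9 and 13 raw counts in shControl (2.79 and 3.48 CPM) but 123 and 89 in shLmna (48.6 and 24.2 CPM). The shLmna libraries were higher, although they differed from each other by 0.99 on the log2 scale. The log2FC was 3.49 (SE 0.403, 95% interval 2.59 to 4.39), an 11.3-fold rise, with an edgeR adjusted p of 4.07e-04. Rpl22 itself stood at 82.1 and 68.8 CPM in shControl and 50.2 and 55.3 CPM in shLmna. It was lower in both shLmna libraries, with a log2FC of -0.51 (95% interval -0.85 to -0.16) that just missed the threshold (edgeR adjusted p of 0.0541) and passed it under 6 of the 14 alternatives. GC content of the counted stretch was 39.1% for Rpl22l1 and 48.7% for Rpl39. Of their 31-base sequences 69.9% and 23.7% were shared with other transcripts, most of them pseudogene copies, so that counts may be divided between copies.

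**Figure D2:**
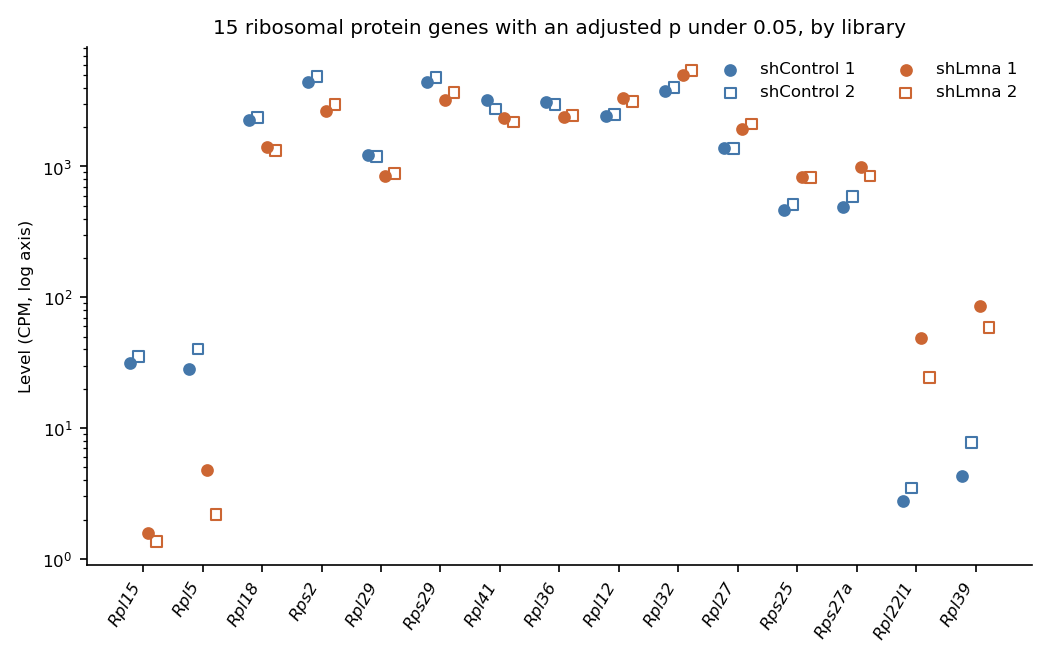
Level of 15 of the 16 ribosomal protein genes with an adjusted p under 0.05 in each library (CPM, log axis), ordered by log2 fold change from Rpl15 to Rpl39. Blue symbols are shControl and orange symbols shLmna, with filled circles for replicate 1 and open squares for replicate 2. The 4 genes at the ends change by 10-fold or more at low levels, and the other 11 by less than 2-fold at mean levels over 500 CPM.

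Among abundant genes of the large subunit, 3 rose and 4 fell. Rpl27, a core protein of the large subunit, was at 1373 and 1379 CPM in shControl and at 1939 and 2109 CPM in shLmna, a log2FC of 0.56 (SE 0.104, edgeR adjusted p of 6.69e-03). Rpl32, the most abundant of the 16, was at 3796 and 3995 CPM against 5000 and 5414 CPM, a log2FC of 0.42 (edgeR adjusted p of 0.0134). Rpl12, which forms the base of the stalk, was at 2439 and 2485 CPM against 3310 and 3154 CPM, a log2FC of 0.39 (edgeR adjusted p of 0.0208). In each of these the lower shLmna library was above the higher shControl library.

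Rpl18 showed the largest decrease among abundant large subunit genes. It stood at 2266 and 2369 CPM in shControl and at 1403 and 1326 CPM in shLmna, a log2FC of -0.76 (SE 0.102, 95% interval -0.99 to -0.54) with an edgeR adjusted p of 9.58e-04. Rpl29, also known as a heparin-binding protein, went from 1233 and 1195 CPM to 849.2 and 880.6 CPM, with a log2FC of -0.49 and an edgeR adjusted p of 0.0141. Rpl41, the shortest of the ribosomal proteins, went from 3206 and 2757 CPM to 2357 and 2187 CPM, with a log2FC of -0.39 and an edgeR adjusted p of 0.0377. Rpl36 went from 3092 and 2979 CPM to 2409 and 2448 CPM, with a log2FC of -0.32 and an edgeR adjusted p of 0.0460. The groups did not overlap in any of these 4 genes. Rpl41 did not pass with upper quartile scaling, nor with a correction for GC content, where its edgeR adjusted p was 0.0778. For Rpl36 the adjusted p was 0.402 at its highest over the alternatives, and the log2FC was -0.13 with a correction for GC content, which was 60.8% in its counted stretch.

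The other 34 large subunit genes did not pass the edgeR test, and the nearest to the threshold was Rpl7 at 0.0527. Rpl7 stood at 321.2 and 382.6 CPM in shControl and at 463.9 and 484.4 CPM in shLmna, a log2FC of 0.43 (95% interval 0.14 to 0.72). It passed under 8 of the 14 alternatives, among them DESeq2, no filter on low counts and upper quartile scaling. With a correction for GC content alone it did not pass, whereas with the replicate block added to that correction it did. The stalk proteins Rplp0, Rplp1 and Rplp2, which recruit translation factors, had log2FC values of -0.18, -0.20 and -0.15. Rplp1 was the most abundant gene of the family at 13686 and 13586 CPM in shControl and 12183 and 11593 CPM in shLmna. Its 95% interval was -0.36 to -0.03, with an edgeR adjusted p of 0.104. Both shLmna libraries lay lower for Rplp0 and Rplp1, whereas for Rplp2 the groups overlapped.

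Paralogs and their parent genes were compared with the same test. Rpl7l1, a relative of Rpl7 that acts in assembly, had a mean of 144.7 ± 29.3 CPM in shControl and 163 ± 13.9 CPM in shLmna (SD, n = 2), with a log2FC of 0.17 and an edgeR adjusted p of 0.50. Rpl10 and Rpl3 had log2FC values of -0.34 and -0.15, with edgeR adjusted p of 0.133 and 0.371. The tissue-restricted paralogs Rpl10l and Rpl3l held 0 counts and 1 count over all libraries. Rpl8, Rpl4 and Rpl37, which with Rplp1 and Rpl32 were the 5 most abundant large subunit genes by CPM, had log2FC values of -0.11, -0.08 and 0.03. Their edgeR adjusted p values were 0.436, 0.618 and 0.852. Divided by the length of the counted sequence, the order was Rplp1, Rpl32, Rpl38, Rpl36 and Rpl8, at 25575, 8803, 8225, 7133 and 6808 CPM per kilobase. Counts of 3′ ends need not grow with that length, which was 364 bases in Rpl38 and 383 in Rpl36. This order therefore favours short counted stretches and does not rank expression.

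**Figure D3:**
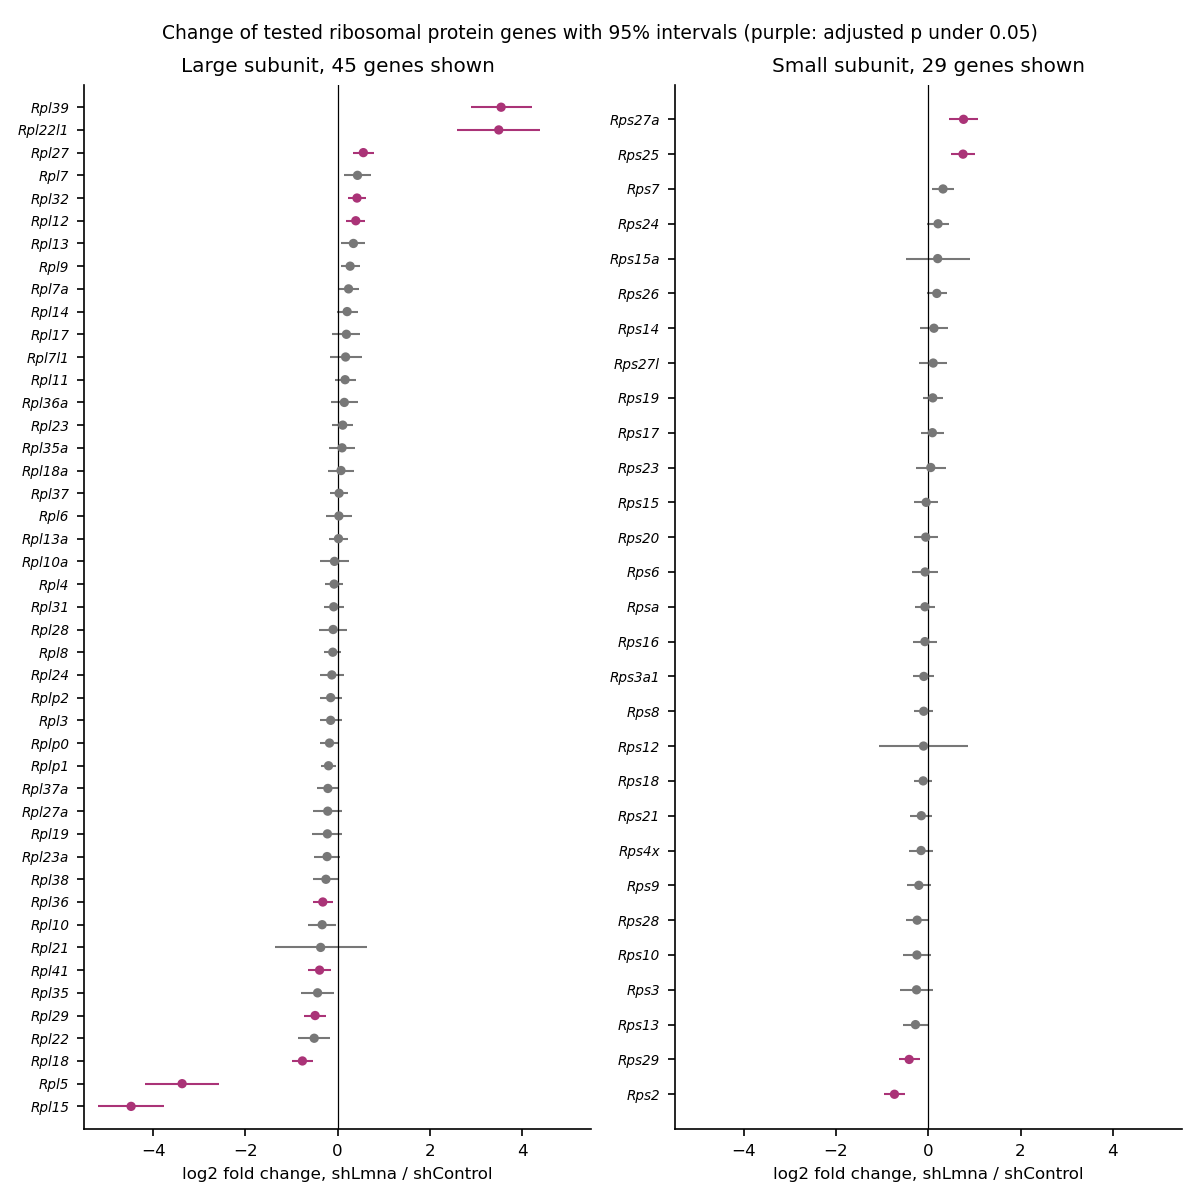
Log2 fold change of shLmna over shControl for the 45 tested large subunit genes (left) and 29 of the 31 tested small subunit genes (right). Points are the edgeR estimates, lines the 95% intervals and purple an adjusted p under 0.05. Outside the 4 genes at the extremes of the left panel every estimate lies between -0.76 and 0.76, and wide intervals are seen for Rpl21, Rps15a and Rps12.

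In the small subunit 5 of the 31 genes tested passed the adjusted p in edgeR (16.1%), 2 higher and 3 lower, near the 15.2% of all tested genes. None passed the limit of 1 on the log2 scale, and so none the 3 limits in edgeR, beside 7.64% of all tested genes. With DESeq2 none passed the 3 limits either, given here without the DESeq2 share over all genes. An unadjusted p under 0.05 in edgeR was found for 8, given here without a share over all genes. Rps27a, which encodes ubiquitin fused to a ribosomal protein, was at 488.5 and 589.5 CPM in shControl and at 988 and 843.8 CPM in shLmna. Both shLmna libraries were higher, with a log2FC of 0.76 (SE 0.137, 95% interval 0.46 to 1.07, edgeR adjusted p of 5.42e-03). Rps25, known for its part in initiation at viral internal entry sites, was at 466.8 and 514.3 CPM against 825.4 and 828 CPM. It was higher in both shLmna libraries, with a log2FC of 0.75 (SE 0.117, 95% interval 0.49 to 1.01, edgeR adjusted p of 2.31e-03).

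Of the 3 small subunit genes that were lower, Rps2 and Rps29 are described. Rps2, a protein at the entry of the mRNA channel, showed the largest decrease of the small subunit. It was at 4453 and 4888 CPM in shControl and at 2638 and 2980 CPM in shLmna, with no overlap. The level fell by 39.9%, a log2FC of -0.73 (SE 0.102, 95% interval -0.96 to -0.50) with an edgeR adjusted p of 1.23e-03. Rps29 was lower in both shLmna libraries too, at 4415 and 4765 CPM against 3204 and 3682 CPM, a log2FC of -0.41 with an edgeR adjusted p of 0.0231.

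The other 26 small subunit genes did not pass the edgeR test. Rps6, the S6 kinase substrate, stood at 312.2 and 357.4 CPM in shControl and 314.8 and 323.4 CPM in shLmna, a log2FC of -0.07 (95% interval -0.35 to 0.21). Rpsa, which also serves as a laminin receptor, stood at 3527 and 3311 CPM against 3430 and 3073 CPM, a log2FC of -0.07 (95% interval -0.29 to 0.15). The groups overlapped in both genes. The X-linked Rps4x and the p53-responsive paralog Rps27l had log2FC values of -0.16 and 0.11, with edgeR adjusted p of 0.403 and 0.656. Among the most abundant small subunit genes by CPM, Rps29 was described above and Rps19, Rps18 and Rps10 had log2FC values of 0.10, -0.11 and -0.25, with edgeR adjusted p between 0.247 and 0.546. Per kilobase of counted sequence, Rps29, Rps19, Rps18 and Rps21 stood in this order at 10298, 8504, 7585 and 5517 CPM per kilobase. As in the large subunit, this order favours short counted stretches.

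Over both subunits the 60 genes that did not pass had fitted changes from -0.51 to 0.43 on the log2 scale. For 43 of them the whole 95% interval lay within 0.5 of 0, while for the other 17 a larger change was not excluded by the interval. Over 20% of the 31-base sequences of the counted stretch were shared with other transcripts in 71 of the 84 genes. The median was 61.6%, so most of these genes could exchange reads with processed pseudogenes.

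Rps12 was the gene whose replicates differed most, and it did so in both groups. It stood at 1987 and 4320 CPM in shControl 1 and 2 and at 1490 and 4378 CPM in shLmna 1 and 2. Replicate 1 was the low library in each group, and the groups overlapped. The log2FC was -0.10 with a 95% interval of -1.08 to 0.87 (edgeR adjusted p of 0.907), and it turned to 0.56 without shControl 2 and to 0.48 without shLmna 1. Next came Rpl21 and Rpl39 in shControl, with differences of 0.87 and 0.77 on the log2 scale, and Rpl22l1 and Rpl5 in shLmna, with 0.99 and 0.97.

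Low counts kept 8 genes from being tested. Rpl26, Rpl10l, Rpl39l and Rps4l were listed at 0 in every library. Rps27 had 2, 4, 2 and 6 counts, Rpl30 had 6, 13, 5 and 9 counts, and Rpl34 had 8, 8, 5 and 16 counts in shControl 1 and 2 and shLmna 1 and 2. Since Rpl26, Rpl30 and Rpl34 are part of every ribosome, their values describe what was counted and not whether the genes were expressed. For Rps27, whose paralog Rps27l had a mean of 1044 CPM, low expression and missed counts could not be told apart. Shared 31-base sequences made up 76.2%, 98.7%, 86.3% and 48% of the counted stretches of Rpl26, Rps27, Rpl30 and Rpl34.

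Summed over all 84 genes, ribosomal protein counts took nearly the same share of each library. The share was 15.2% and 15.3% in shControl 1 and 2 and 14.9% and 15.0% in shLmna 1 and 2, or 15.28% ± 0.0673 against 14.99% ± 0.0596 (SD, n = 2). Wilson 95% intervals extended at most 0.0442 percentage points to either side, which covers counting error only. The shLmna libraries were lower by 0.294 percentage points, and the groups did not overlap. The large subunit took 8.84%, 8.69%, 8.81% and 8.61% and the small subunit 6.39%, 6.64%, 6.14% and 6.42% of the 4 libraries, with overlap between groups in both. The ratio of large to small subunit counts was 1.38 and 1.31 in shControl and 1.44 and 1.34 in shLmna. Without Rps12 it was 1.43 and 1.40 against 1.47 and 1.44, so that the shLmna libraries were then the higher ones. Over the 13 genes that share no more than 20% of their 31-base sequences it was 0.464 and 0.489 against 0.47 and 0.442, with overlap and the lower mean in shLmna (a difference of -0.0207, against 0.0423 over all genes). With 2 libraries a group these sums were not tested.

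**Figure D4:**
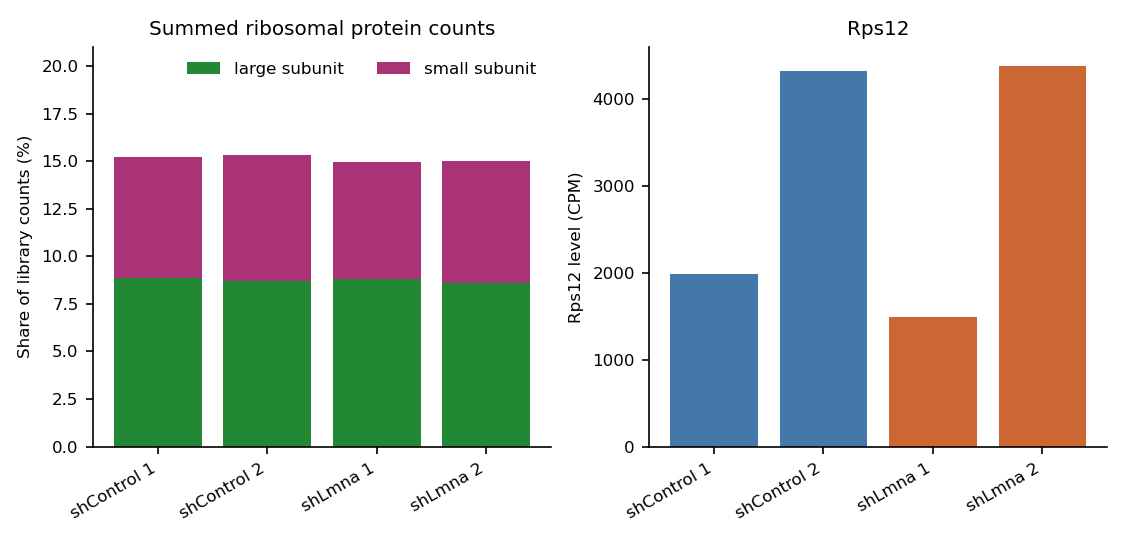
Left, share of all counts of a library (%) taken by large subunit genes (green) and small subunit genes (purple), stacked. Right, Rps12 level (CPM) in the same libraries, blue for shControl and orange for shLmna, which is low in replicate 1 and high in replicate 2 of both groups while the stacked share stays between 14.9% and 15.3%.

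Genes that make or regulate ribosomes were described from related lists. The 4 subunit proteins whose symbols the rule does not take, among them Fau, Gnb2l1 (Rack1) and Rpl36al, had 0 with an edgeR adjusted p under 0.05, 1 with an unadjusted p under 0.05, and 0 with DESeq2. Of 16 tested non-ribosomal 5′TOP transcripts 1 was lower and 0 were higher in edgeR (4 in either direction at an unadjusted p under 0.05, and 0 higher with DESeq2). This was Tpt1, the gene of a growth-related protein, at 848.1 and 951.8 CPM against 668 and 685.2 CPM, with a log2FC of -0.41 and an edgeR adjusted p of 0.0410. Over all tested genes 9.74% were lower and 5.48% higher, which is the background for the 5′TOP transcripts and for their regulators. Of 10 tested regulators of 5′TOP translation 1 was lower and 0 were higher. Eif4ebp2, an inhibitor of cap-dependent initiation under mTOR, was at 115.8 and 141.6 CPM against 50.6 and 53.1 CPM, with a log2FC of -1.31 (SE 0.15, edgeR adjusted p of 3.84e-04).

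Of the 69 tested ribosome assembly factors, 8 were higher and 4 lower in edgeR (adjusted p under 0.05), beside 5.48% and 9.74% of all tested genes. Rpf2, which with Rrs1 brings the 5S ribosomal RNA, Rpl5 and Rpl11 into the large subunit, was higher at 109.2 and 96.7 CPM in shLmna against 44.6 and 44.7 CPM in shControl, a log2FC of 1.20 (edgeR adjusted p of 4.96e-04). Its partner Rrs1 was lower at 33.2 and 52.0 CPM against 164.8 and 130.1 CPM, a log2FC of -1.76 (edgeR adjusted p of 4.27e-04). Pno1, which acts late in small subunit assembly, went from 130.7 and 147 CPM to 36.4 and 54.8 CPM, a log2FC of -1.59. Utp18, of the small subunit processome, had 136 and 162 counts in shControl and 4 and 1 counts in shLmna, a log2FC of -5.65 (edgeR adjusted p of 2.59e-05). With so few counts its size was uncertain, at -7.12 without shLmna 1, -4.71 without shLmna 2 and -4.06 with the GC correction, and it passed the test in each. Tex10 and Wdr43 were higher, with log2FC values of 0.73 and 0.71. GC content of the counted stretch was 30.5% in Utp18, 36.5% in Pno1, 42.9% in Rrs1 and 40.1% in Rpf2. The median log2FC over the list was 0.04.

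Of the 7 tested chaperones that escort single ribosomal proteins 2 were higher and 0 lower in edgeR at an adjusted p under 0.05, beside 5.48% and 9.74% of all tested genes. These were Heatr3 (log2FC of 0.62), which serves Rpl5 and Rpl11, and Bccip (0.45), which serves Rpl23. Neither passed with DESeq2, which found 0 chaperones higher and 0 lower. Of the 12 tested RNA polymerase I genes 2 were higher and 0 lower in edgeR, against the same background. These were Taf1d (0.89) and Rrn3 (0.48), a factor that recruits the polymerase to ribosomal DNA. With DESeq2 Taf1d passed and Rrn3 did not, and 1 other gene was lower. Heatr3, Bccip and Rrn3 also missed the threshold without shControl 2, shLmna 1 or shLmna 2, and Taf1d without shLmna 1. An unadjusted p under 0.05 in edgeR, in either direction, was found for 4 chaperones and 3 RNA polymerase I genes. For none of the related lists is the count at an unadjusted p set beside a share over all genes.

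**Figure D5:**
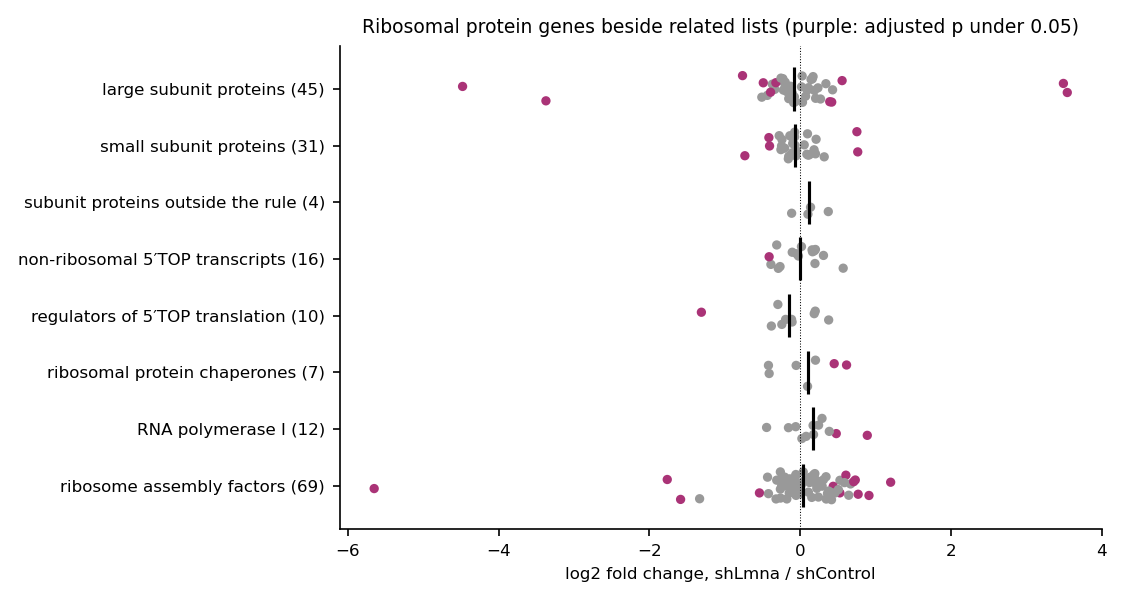
Log2 fold change of each tested gene, in rows for the large and small subunit proteins and 6 related lists, with the number of tested genes in parentheses. Black bars are medians and purple points genes with an adjusted p under 0.05. All medians lie close to 0, from -0.15 for regulators of 5′TOP translation to 0.17 for RNA polymerase I.

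In the log2 values with the authors' batch correction the large changes were smaller. There Rpl15 had a difference of -0.72, Rpl5 of -0.63, Rpl39 of 0.92 and Rpl22l1 of 0.65 on the log2 scale, and each still had a limma adjusted p under 0.05. This was not particular to these 4 genes, since Lmna, Rpl18 and Utp18 also had smaller differences there, of -1.54, -0.53 and -0.88. In the main test these were -2.61, -0.76 and -5.65, so that Lmna and Rpl18 shrank less in proportion than the 4 genes. The part of the batch correction in this was not tested. Of the 16 ribosomal protein genes with an adjusted p under 0.05, 7 passed the test under each of 14 alternatives, namely Rpl15, Rpl5, Rpl39, Rpl22l1, Rpl18, Rps2 and Rps25. None of the 16 changed direction in any of them. How many of all tested genes passed under each alternative was not counted, so neither number is read as particular to the family.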

How the data were processed

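Bulk MARS-seq libraries of B16F10 cells (2 shControl, 2 shLmna) were grouped by sample title. According to the study's methods and the submitters' processing notes, the authors trimmed reads with Cutadapt, aligned them to mm10 with STAR 2.4.2a and counted them with HTSeq over the last 1000 bases of RefSeq genes and 100 bases downstream, with UMI duplicates marked. The main test used the deposited matrix of raw counts. The sources do not state if it precedes the collapse of duplicates. Another deposited file gave a per-library signal, which is a count over its DESeq2 size factor, along with p-values and adjusted p-values of the authors' own comparison, which were not used. The last deposited file gave normalized log2 values after ComBat batch correction by the authors, with batches that were not named.

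Counts were tested in edgeR 4.0.16 (R 4.3.3) by its quasi-likelihood method, two-sided (TMM scaling, filterByExpr, group as the only term), adjusted by the Benjamini-Hochberg method over 9150 genes. The biological coefficient of variation was 0.126. CPM values are TMM-scaled. Values in the size-factor table were whole multiples of a single step (tolerance 0.1) for 100% of entries in each library, and the counts recovered from them, which the matrix exceeded 1.08 to 1.09 times, served as an alternative. Other alternatives were DESeq2 1.42.0, limma 3.58.1 on the batch-corrected values, other scalings, no filter, a GC correction (loess, span 0.3), a replicate block and the omission of each library. The scripts were tested on simulated counts.

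Gene positions, 3′UTR lengths, GC content and shared 31-base sequences were taken from GENCODE M21 (GRCm38, the build also named mm10), using the RefSeq-linked transcript with the most distal end, which may differ from the authors' RefSeq version. Start site sequences are from RefSeq (GRCm38.p6). Genes named are Lmna, ribosomal protein genes with an adjusted p under 0.05, the 5 most abundant of each subunit by CPM, stalk and 5S proteins, Rps6, Rpsa, paralogs with their parents, genes under the filter, those whose replicates differ most, and of each related list the 3 smallest p in each direction. The order per kilobase and the genes without coding bases in the counted stretch were added after values were seen. The ribosomal protein genes and all lists were chosen with earlier results of these data known. A few genes that the naming rule takes are counted but not reported here by name.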

Additional observations from a re-analysis of the deposited data

How the results depend on the processing

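Precision is limited by 2 libraries a group and, for Rpl15, Rpl5, Rpl39 and Rpl22l1, by low counts. Of 728 values of single named genes under the alternatives, 643 kept their direction and their side of the threshold, 48 no longer passed, 25 newly passed and 12 changed direction. With 1 library left out, log2FC ranged from -0.74 to 0.19 for Rpl21 (higher without shControl 2), -0.0279 to 0.39 for Rpl7l1 (lower without shControl 2), -1.06 to 0.56 for Rps12 (0.48 without shLmna 1), -0.0071 to 0.21 for Rps19 (lower without shLmna 1), -0.0742 to 0.31 for Rps27l (lower without shControl 1), -0.161 to 0.0287 for Rps6 (higher without shControl 2) and -0.149 to 0.0172 for Rpsa (higher without shLmna 2). The GC correction, alone and with the replicate block, turned Rpl37 (-0.0117 and -0.0117) and Rpl8 (0.0133 and 0.0134). Another 24 ribosomal protein genes passed under at least 1 alternative. The same was not counted over all tested genes, so this number is not read as a trait of the family. The causes were not tested. Lmna kept its direction and its call under every alternative.

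With the batch-corrected values, large subunit genes with an adjusted p under 0.05 numbered 9 higher and 13 lower (5 and 6 in the main test), small subunit genes 8 lower (3), and all genes 1792 higher and 1982 lower (501 and 891), while large subunit genes past the 3 limits numbered 0 higher and 0 lower (2 and 2). DESeq2 gave 218 higher and 589 lower over all genes. The GC correction gave 823 higher over all genes, beside 748 lower. The replicate numbers of the 2 groups gave no sign of pairing, with a correlation of 0.0129 between the differences of replicate 1 and 2 over 9150 genes. With the replicate block, 8 large subunit genes were higher, and over all genes 852 were higher, or 1047 with the GC correction added.

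Omitting single libraries gave 2 to 6 higher and 3 to 8 lower large subunit genes, 1 to 2 higher and 1 to 6 lower small subunit genes, and 89 to 775 higher and 414 to 1329 lower over all genes. The lowest numbers came without shLmna 1 or shLmna 2. The large subunit genes past the 3 limits stayed at 2 higher and 2 lower in number.

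Related lists moved as follows, while the totals over all genes moved too. Genes higher numbered 501 in the main test, 218 with DESeq2, 852 with the block and 1792 with the batch-corrected values. Totals for no filter, upper quartile scaling and lower genes with the block are not given here. The moves are therefore not read as particular to a list. Subunit proteins outside the symbol rule had 1 higher (0 in the main test) with no filter, the batch-corrected values, the block, and the block with the GC correction, and 0 to 1 when 1 library was left out. Non-ribosomal 5′TOP transcripts had 1 higher (0) with the batch-corrected values and the block, and 0 to 3 with 1 library left out. They had 0 lower (1) with upper quartile scaling, 4 with the batch-corrected values, 4 with the block, 2 with the block and GC correction and 0 to 2 with 1 library left out. Regulators of 5′TOP translation had 2 lower (1) with the batch-corrected values. Chaperones had 0 higher (2) with DESeq2 and 0 to 2 with 1 library left out, and 1 lower (0) with no filter, 2 with the batch-corrected values, 2 with the block and 0 to 2 with 1 library left out. RNA polymerase I genes had 1 higher (2) with DESeq2 and with the GC correction and 0 to 3 with 1 library left out. They had 2 lower (0) with no filter, 1 with DESeq2, 2 with the batch-corrected values, 1 with the block, 1 with the block and GC correction and 0 to 2 with 1 library left out. Assembly factors had 13 higher (8) with no filter, 5 with DESeq2, 20 with the batch-corrected values, 14 with the block, 17 with the block and GC correction and 1 to 9 with 1 library left out, and 10 lower (4) with the batch-corrected values and 7 with the block. For the sums, the difference in small subunit share was -0.0116 percentage points (-0.238 in the main values) over the 13 genes that share no more than 20% of their 31-base sequences. The omission of Rps12 from the sums was chosen after seeing the data.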
